A study of Mus musculus with 54 samples.

Results

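The glutathione peroxidases Gpx1, Gpx3, Gpx4 and Gpx6 were followed across fresh, cryopreserved and methanol-fixed kidney cells, kidney nuclei and bulk kidney RNA of the mouse. They are 4 of the 11261 genes listed in every single-cell and single-nucleus library. They were chosen by their levels in methanol-fixed against fresh C57BL/6J cells, so that comparison is described here without a test. The C57BL/6J mice were AFAPIL.1DEL males of the same litter, aged 19 weeks. Their kidneys were dissociated on ice with a cold-active protease (cold) or at 37 °C (warm). Each suspension was run fresh, after methanol fixation and storage for 3 months, or after cryopreservation for 6 weeks. Methanol-fixed cells were also loaded for a lower cell capture, so fixation, storage and loading cannot be told apart. Balb/c females were aged 15 weeks and had been used as breeders. They gave cold-dissociated cells run fresh or after cryopreservation for 2 weeks. Their frozen kidneys gave nuclei prepared in 3 ways: sorted after 3 washes with spins at 500 g (3x500g), sorted after 1 wash with spinning at 2000 g (1x2000g), or cleared through sucrose. Balb/c males aged 18 weeks gave fresh cold-dissociated cells and 3x500g nuclei. Every group held 3 libraries, and bulk RNA-seq covered C57BL/6J cold and warm suspensions, intact Balb/c kidneys of both sexes and Balb/c female cold suspensions. Each group's libraries came from kidneys of different adult mice of one inbred strain. Chromium chemistry was version 2 for the C57BL/6J and Balb/c male libraries and version 3 for the Balb/c female ones, and cryopreserved cells were washed at 400 g in the first strain and at 1200 g in the second. Strain, mouse line, sex, age, breeding history, chemistry, storage time and wash therefore cannot be told apart between the C57BL/6J and Balb/c female cells. Every test below stays within one strain and sex.

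Glutathione peroxidases reduce hydrogen peroxide and lipid hydroperoxides with glutathione as the electron donor, and most of them carry selenocysteine at the active site, read from an in-frame TGA codon. Gpx1 is the abundant cytosolic enzyme of most cells. Gpx3 is the secreted plasma enzyme, and the proximal tubule of the kidney is its main source in the body. Gpx4 reduces peroxidised phospholipids within membranes and restrains ferroptosis, the iron-dependent form of cell death, and Gpx6 is a close relative of Gpx3 known mainly from olfactory tissue.

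The coding sequence around the active-site codon is shown because that codon differs in mouse Gpx6. Windows of 27 bases are given from GRCm38 with GENCODE M21 transcripts, plus strand, with the active-site codon in capitals.
Gpx1: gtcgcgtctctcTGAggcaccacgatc
Gpx3: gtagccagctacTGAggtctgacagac
Gpx4: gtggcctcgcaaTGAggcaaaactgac
Gpx6: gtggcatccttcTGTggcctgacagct
The first 3 carry the TGA selenocysteine codon. For Gpx6, which has no annotated selenocysteine, the window is the in-frame stretch most like that of Gpx3, with 18 of 27 bases identical and 16 for the next best stretch, and it holds TGT, a cysteine codon. Since that window was picked for its likeness to Gpx3, its identity is not comparable with those of the other members. The Gpx3 window shared 16 of 27 bases with Gpx4 and 13 with Gpx1. The codon lies at chr9:108339451-108339453 in exon 1 of 2 of Gpx1 (codon 47 of 201), at chr11:54907256-54907258 in exon 2 of 5 of Gpx3 (codon 73 of 226), at chr10:80054737-80054739 in exon 3 of 7 of Gpx4 (codon 73 of 197) and at chr13:21313777-21313779 in exon 2 of 5 of Gpx6 (codon 73 of 221). No other annotated gene overlapped any of the 4 gene bodies, on either strand.

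Of 175959 barcodes, 113778 were placed in 1 of 11 classes by a marker gate, which counted how many genes of each class's marker list a cell expressed. A further 20045 reached the marker minimum of more than one class but were not placed, and were left out. Cells that reached more than one minimum were kept where the marker share of the top class was over 1.5 times the next. Libraries held 782 to 9308 barcodes and 811794 to 35170947 UMIs, and any pair of libraries shared at most 2.05% of the smaller one's barcodes. A gate is a rule, not a purified cell type: 27.9% of gated cells lay near its limits, rising to 56.3% of proximal tubule cells after cold methanol fixation and 61.0% after warm. No C57BL/6J cryopreserved cell passed the proximal tubule gate, against 3503 fresh cold cells, so that class has no cryopreserved value in this strain. The cold groups held 11851 fresh and 3519 cryopreserved barcodes in all. The paper's own annotation did place a small share of the cryopreserved cells in the proximal tubule, so the absence is that of this gate. Levels below are UMIs per 10000 non-mitochondrial UMIs of the gated cells of a library, and in a gate, as in bulk RNA, fewer cells of a type and less RNA per cell cannot be told apart. The tubule probe list, used throughout as a gauge of proximal tubule RNA in other gates, holds 10 proximal tubule genes such as Miox and Gatm. Its summed level uses the 9 of them listed in every library, while counts of its genes that rose or fell are over all 10 or those that passed the low-count filter.

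In fresh cold-dissociated C57BL/6J cells each member had its own distribution across the kidney. Gpx3 reached 341, 364 and 346 UMIs per 10000 in the 3 libraries' proximal tubule gates. Within the tubule it stood at 441, 441 and 388 in the S1/S2 segments and at 135, 134 and 157 in S3, with no overlap. Outside the tubule the highest level was in intercalated cells, the acid-base cells of the collecting duct, at 67.7, 50.7 and 60.3. Principal cells, their neighbours in the same duct, had 16.5, 18.9 and 27.2. Podocytes, endothelial cells, phagocytes, thick ascending limb and lymphocyte gates lay between 16.4 and 48.8 in single libraries and overlapped one another.

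Gpx1 followed the opposite order inside the tubule, with 48.7, 41.2 and 52.7 in S1/S2 and 64.7, 57.4 and 69.5 in S3. Next came phagocytes with 17.5, 22.7 and 23.6, while podocytes had 3.28, 3.56 and 6.22. Gpx4 was the most evenly spread of the abundant members. It measured 31.1, 26.0 and 23.5 in proximal tubule, 23.4, 19.0 and 20.8 in podocytes, and 5.22, 5.65 and 6.85 in phagocytes. The podocyte range ended just below that of the tubule, whereas phagocytes lay below both.

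Gpx6 was a thick ascending limb gene in these libraries. Its level there was 4.35, 2.44 and 2.45, against 0.534, 0.421 and 0.257 in the distal convoluted and connecting tubule and at most 0.0174 in the proximal tubule. On average 31.3% of thick limb cells held a Gpx6 UMI (range 21.1 to 45.8%), at median depths of 985 to 1818 UMIs, against 0.131% of proximal tubule cells at median depths of 1111 to 2053 UMIs. Across 121 combinations of gate and library group, the gene most like Gpx6 was Umod, the uromodulin gene of the thick limb, with Pearson r = 0.854, followed by Sostdc1 and Ppp1r1a. The genes most like Gpx3 were Guca2b, Spink1 and Apom (r = 0.932, 0.923 and 0.918). Gpx1 was most like Ftl1, Fth1 and Akr1a1 (r = 0.933, 0.922 and 0.913), the first pair being the ferritin chains that store iron, and Gpx4 most like Park7, Hint1 and Ech1 (r = 0.959, 0.950 and 0.950). These correlations are descriptions, since the combinations share libraries and differ in depth, and Umod is itself a marker that defined the thick limb gate.

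**Figure D1:**
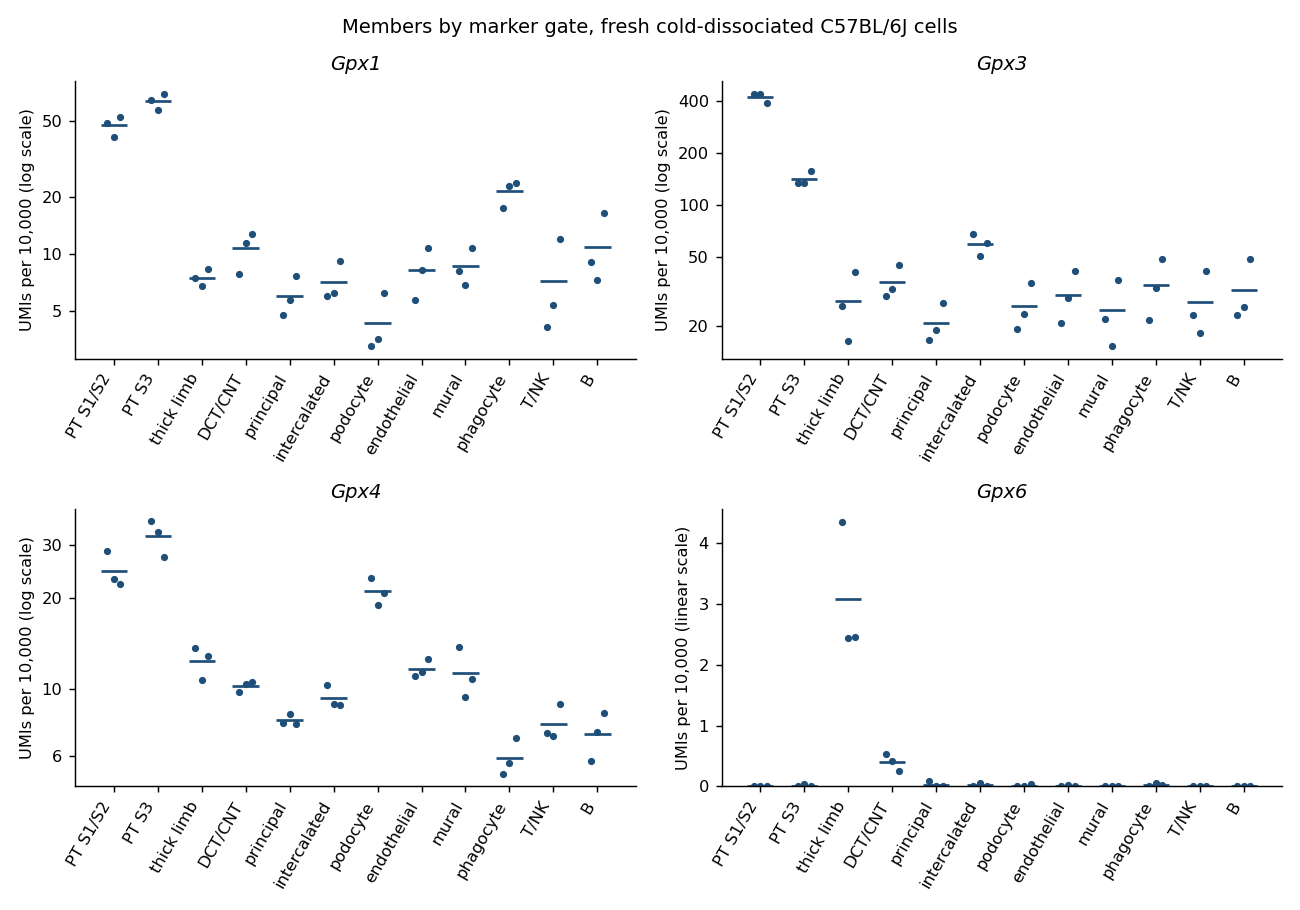
Level of each member (UMIs per 10000, log axis for Gpx1, Gpx3 and Gpx4, linear axis for Gpx6) in 12 marker gates of fresh cold-dissociated C57BL/6J cells; each point is 1 library and each bar the mean of 3. Gpx3 and Gpx1 peak in opposite parts of the proximal tubule (PT), Gpx1 is high again in phagocytes, Gpx4 in podocytes, and Gpx6 is highest in the thick limb; DCT/CNT is the distal convoluted and connecting tubule.

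Fresh Balb/c cells shared part of this order. In females Gpx3 was 260, 268 and 238 in S1/S2, 72.0, 65.8 and 53.7 in S3, 27.8, 29.3 and 20.1 in intercalated cells and 13.3, 17.8 and 9.63 in principal cells. Podocyte Gpx4 in the same libraries was 26.1, 22.0 and 20.4, close to the 28.1, 26.2 and 26.4 of the proximal tubule. Thick limb Gpx6 was 2.39, 2.02 and 1.90 in females and 1.71, 3.62 and 1.12 in males. The intercalated level of Gpx3 stood above that of principal cells in every fresh library of both strains. In Balb/c males, however, intercalated Gpx3 averaged 44.0 ± 16.8, within the spread of endothelial cells (44.9 ± 8.02) and phagocytes (45.2 ± 27.3; SD, n = 3). The segment order of Gpx1 was not shared either, at 51.5 ± 3.79 in S1/S2 and 42.6 ± 9.73 in S3 of females and 42.6 ± 6.72 and 45.7 ± 4.89 in males, both overlapping. Male podocyte Gpx4 averaged 26.2 ± 2.23 and tubule Gpx4 24.5 ± 5.81, which overlapped.

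Bulk RNA-seq ranked the members in the same way in every group. Per kilobase of exon, the cold C57BL/6J suspensions had 3124 ± 307 RPKM of Gpx3, 549 ± 90.8 of Gpx1, 200 ± 9.95 of Gpx4 and 26.3 ± 3.07 of Gpx6 (SD, n = 3). The other family members Gpx2, Gpx5, Gpx7 and Gpx8 did not exceed a group mean of 13.3 CPM, counts scaled to a common library total, the highest being Gpx8. Bulk libraries held 2326998 to 31093949 counts.

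Methanol fixation was the comparison that named these genes, and it was read against the tubule probe list. After cold dissociation Gpx3 was higher than fresh in each of 9 gates outside the proximal tubule, without overlap between groups, by 2.36 to 5.71 times with a median of 4.07. Gpx1 was likewise apart in 9 of 9 gates, by 2.30 to 4.77 times (median 3.79). Gpx4 was apart in 6 of 9, by 1.19 to 2.19 times (median 1.67), and Gpx6 in 0 of 9. The gates come from the same libraries, so they are not separate observations. The share of all genes apart in these gates is not given here. These counts, and those after warm dissociation below, therefore have no background to be read against. The probe list itself rose by 2.03 to 3.79 times (median 2.86) in the same gates. The highest Gpx3 and probe ratios were both those of the distal convoluted and connecting tubule gate. That gate held 306 fresh and 497 fixed cells, while each of the other gates held fewer cells after fixation, such as 281 and 230 in the thick limb. Whether proximal tubule barcodes entered it after fixation was not tested. Gpx3 in phagocytes, for instance, went from 21.8, 33.1 and 48.8 in the fresh libraries to 114, 137 and 154 in the methanol-fixed ones, and in principal cells from 16.5, 18.9 and 27.2 to 99.8, 102 and 120. Mural cells were not among the 9 gates, and their mean Gpx3 level was 24.8 fresh and 125 fixed.

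Cells with at least 1 Gpx3 UMI became nearly universal after fixation. With every cell thinned to 500 UMIs, and shallower cells left out, the share of phagocytes with a Gpx3 UMI was 66.0% fresh and 99.4% methanol-fixed, and that of principal cells was 61.4% and 98.6%. Unthinned shares were 90.9% and 98.7% in phagocytes and 91.6% and 99.5% in principal cells; 154 fresh and 105 fixed phagocytes, and 18 fresh and 13 fixed principal cells, were too shallow for thinning. Median depth was 978 to 1571 UMIs in fresh and 940.5 to 1117 in fixed phagocytes. No gate lacked Gpx3 in the fresh cells, so none serves as its zero. In podocytes the thinned share with Gpx1 was 20.1% fresh and 58.1% fixed, and that with Gpx4 62.5% and 70.8%.

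Ratios of Gpx1, Gpx3 and Gpx4 were smaller in the proximal tubule gate, where the probe list itself had ratios of 1.02 after cold and 0.977 after warm dissociation. After cold dissociation its Gpx3 level was 350 ± 12.1 fresh and 482 ± 24.2 fixed, a ratio of 1.38, Gpx1 was 52.3 ± 5.37 and 74.5 ± 10.0, a ratio of 1.43, and Gpx4 was 26.9 and 30.0, with overlapping libraries (SD, n = 3). After warm dissociation tubule Gpx1 was 59.5 ± 9.05 and 107 ± 21.9, a ratio of 1.80 with the libraries apart, and Gpx3 had a ratio of 1.28 with overlapping libraries. Outside the tubule 5 gates could be compared, of which B cells had 2 methanol-fixed libraries. In these Gpx3 was 2.04 to 4.05 times the fresh level (median 2.49) and apart in 5 of 5, Gpx1 2.6 to 4.96 times (median 3.32) and apart in 5 of 5, and Gpx4 1.25 to 1.97 times and apart in 3 of 5, against 0.990 to 3.67 times for the probe list (median 1.77). The lowest Gpx3 and probe ratios were both those of B cells, where Gpx1 was 3.32 times the fresh level. The highest Gpx3, Gpx1 and probe ratios were those of the distal convoluted and connecting tubule gate. Gpx6 was apart in 1 of 5, the thick limb, where it was 5.90 ± 1.21 fresh and 10.8 ± 3.12 fixed, 1.82 times against 1.56 for the probe list. The median ratio of Gpx3 was above that of Gpx1 after cold dissociation and below it after warm, and that of Gpx4 was below both each time.

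**Figure D2:**
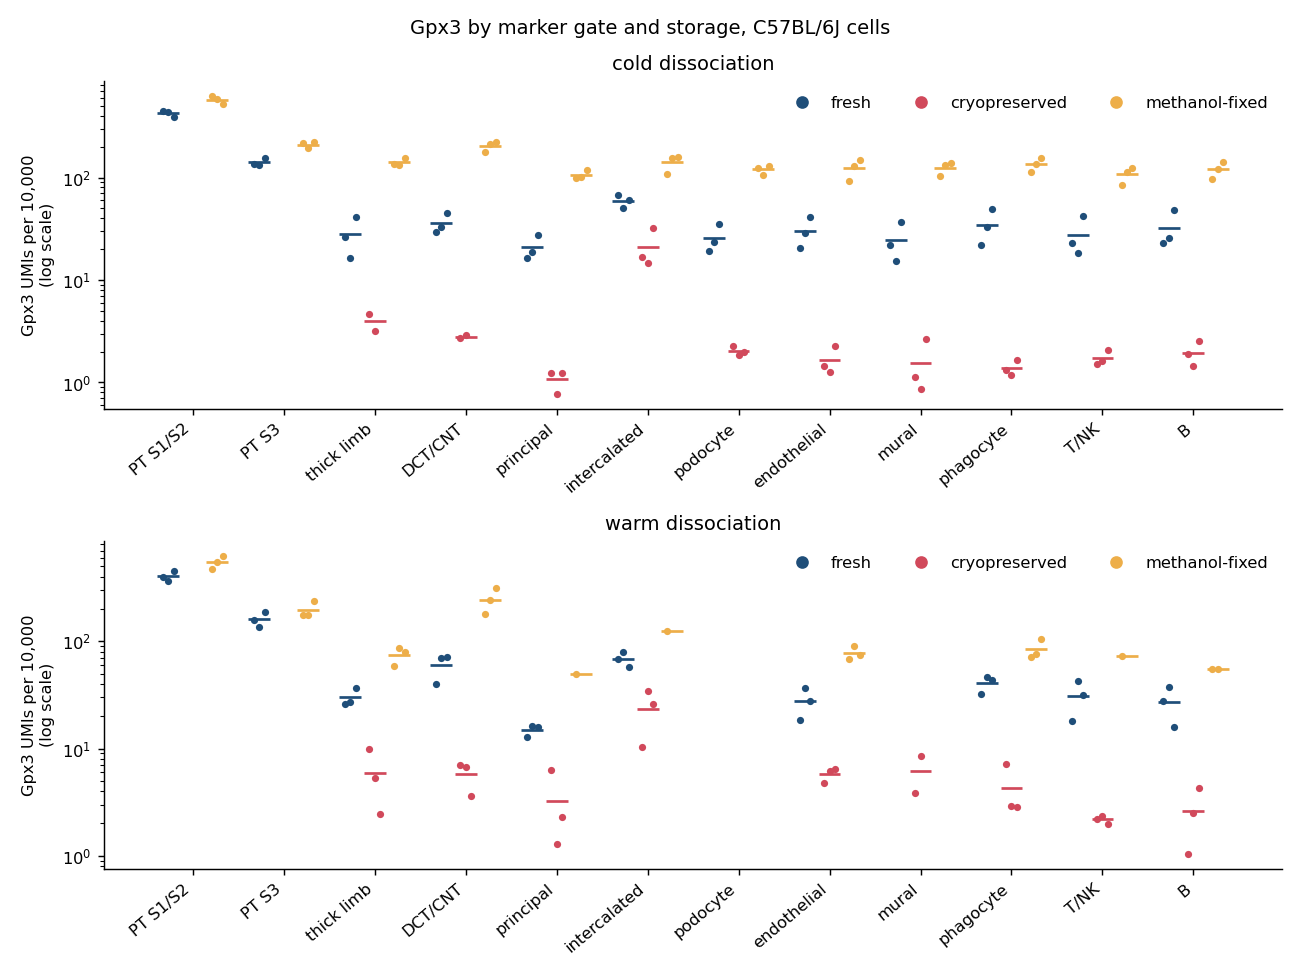
Gpx3 level (UMIs per 10000, log axis) by marker gate in C57BL/6J cells after cold (top) and warm (bottom) dissociation; each point is 1 library with at least 10 gated cells, bars are means, and colours give fresh, cryopreserved and methanol-fixed cells. Outside the proximal tubule (PT), gates with all 3 conditions run from cryopreserved (lowest) to methanol-fixed (highest) in their means, and intercalated cells keep the highest cryopreserved mean.

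To set expression against carried-over tubule RNA, each gate's probe level was divided by that of the proximal tubule gate of the same library and multiplied by the tubule level of the member. This probe-equivalent is the level the gate would show if all of its signal travelled with the probes. For Gpx3 in fresh cold cells the mean of every single gate except intercalated cells lay below it. In fresh cold podocytes the observed level was 26.0 and the probe-equivalent 26.5, in principal cells 20.9 and 21.7, and in endothelial cells 30.3 and 41.4. Methanol-fixed cells lay on either side of it at a higher level, with 124 observed and 124 probe-equivalent in endothelial cells and 135 and 134 in phagocytes, 120 and 105 in podocytes, 141 and 123 in the thick limb, and 205 and 250 in the distal convoluted and connecting tubule.

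Intercalated cells stood above their probe-equivalent in each fresh library. Their Gpx3 exceeded the probe-equivalent by 36.0 ± 11.3 in fresh cold cells (59.5 observed, 23.5 probe-equivalent), by 49.4 ± 13.9 in fresh warm cells (68.4 and 19.0) and by 50.0 ± 15.7 in cold methanol-fixed cells (140 and 90.5; SD, n = 3). The excess was 27.0 ± 14.1 in Balb/c males and 15.5 ± 5.72 in females. The excess after cold fixation thus overlapped that of the fresh cold libraries (32.2 to 62.0 and 25.6 to 48.0), while the observed levels did not overlap. Gated intercalated cells were few, 28, 77 and 93 in the fresh cold libraries.

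Gpx1 and Gpx4, unlike Gpx3, lay above the probe-equivalent in every library of every gate outside the tubule, fresh and fixed after cold dissociation. Phagocyte Gpx1 was 21.3 observed against 6.48 probe-equivalent in fresh cold cells, an excess of 14.8 ± 2.27, and 48.9 against 21.2 after methanol, an excess of 27.8 ± 2.43. Podocyte Gpx4 was 21.1 against 1.98 fresh, an excess of 19.1 ± 2.20, and 25.1 against 6.58 fixed, an excess of 18.5 ± 1.83 that overlapped the 14.7 ± 2.29 of the fixed thick limb. In podocytes Gpx1 stood at 4.35 against 4.00 fresh, an excess of 0.350 ± 0.259, and its observed level was 20.8 fixed. Across the 9 gates Gpx1 rose after cold fixation by 0.438 to 0.873 UMIs for each probe UMI risen (median 0.639). How far each excess reflects transcription in the gated cells was not tested, and RNA from sources other than the proximal tubule is outside this arithmetic.

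**Figure D3:**
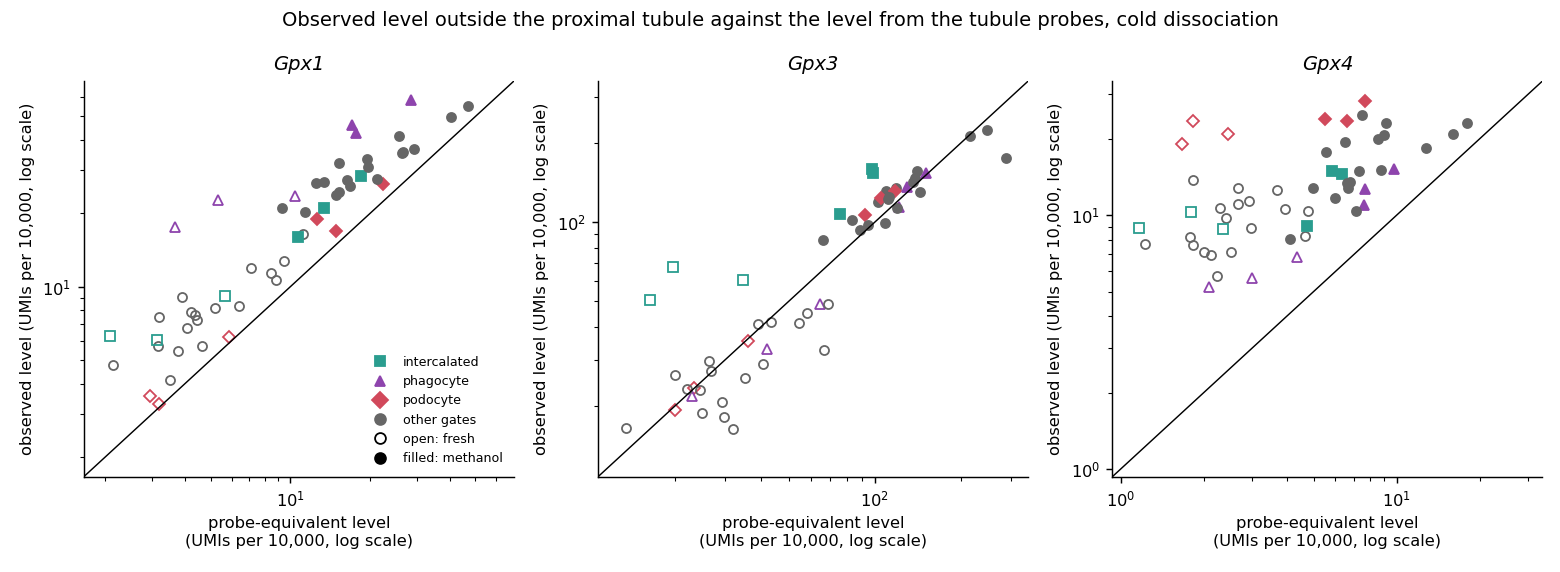
Observed level against probe-equivalent level (both UMIs per 10000, log axes) for Gpx1, Gpx3 and Gpx4 in 9 gates outside the proximal tubule, cold-dissociated C57BL/6J cells; each point is 1 library and gate, open for fresh and filled for methanol-fixed, and the line marks equality. Gpx3 points scatter about the line, with intercalated cells (squares) above it, while all Gpx1 and Gpx4 points lie above it, farthest for phagocytes (triangles) in Gpx1 and fresh podocytes (diamonds) in Gpx4; mural cells are not drawn.

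Cryopreservation was tested with edgeR's quasi-likelihood test on UMIs summed per library and gate, and adjusted p-values (Benjamini-Hochberg) run over all genes of a fit. In C57BL/6J the fresh libraries are the same ones that entered the methanol description. In this strain Gpx3 fell in each of the 4 gates tested, after either dissociation. After cold dissociation phagocytes went from 21.8, 33.1 and 48.8 fresh to 1.32, 1.18 and 1.65 cryopreserved, a log2 fold change of -4.56 ± 0.28 (SE; adjusted p = 7.4e-09). Endothelial cells went from 20.7, 28.9 and 41.4 to 1.45, 1.26 and 2.27 (-4.16 ± 0.29, adjusted p = 5.8e-08), and lymphocytes from 23.1, 22.1 and 44.4 to 1.75, 1.51 and 2.28 (-3.84 ± 0.30, adjusted p = 5.9e-08). The groups did not overlap in any of these gates. The probe list fell with it: all 10 of its tested genes in distal nephron, endothelial and phagocyte gates and all 9 in lymphocytes were lower, with median log2 fold changes of -4.46, -3.69, -4.59 and -4.23. In phagocytes the summed probe level was 16.2 to 35.8 fresh and 2.06 to 2.35 cryopreserved, and the part of the probes in the fall of Gpx3 was not tested.

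The distal nephron, which pools thick limb, distal convoluted and connecting tubule, principal and intercalated cells, changed least for Gpx3 after cold dissociation. It went from 33.1, 29.8 and 45.2 to 8.87, 5.46 and 14.6 (-1.87 ± 0.27, adjusted p = 0.00047). Within it, intercalated cells kept 16.8, 14.7 and 32.1 when principal cells of the same libraries held 1.23, 0.777 and 1.25. The summed probe level was alike in the pair of gates, 0.579 to 1.97 in intercalated and 0.463 to 1.49 in principal cells. Intercalated cells alone still fell (-1.51, adjusted p = 0.0010), and thick limb cells alone fell by 2.83 on the log2 scale. With thinning to 500 UMIs, 42.6% of cryopreserved intercalated cells held a Gpx3 UMI at median depths of 1957 to 2996 UMIs, against 5.97% of principal cells at 1476 to 1738 UMIs; unthinned, the shares were 73.2% and 18.2%.

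The other members changed less under cryopreservation after cold dissociation. Gpx1 in phagocytes was 17.5, 22.7 and 23.6 fresh and 18.2, 20.3 and 22.1 cryopreserved, with a log2 fold change of 0.02 ± 0.16 (adjusted p = 0.97), and it was called in the distal nephron (-0.84 ± 0.20, adjusted p = 0.018). That call was lost without fresh replicate 3, cryopreserved replicate 1 or cryopreserved replicate 2 (adjusted p = 0.069 to 0.11), with a stricter gate (0.079), and in thick limb (0.50) or intercalated cells (0.067) alone. Gpx1 in lymphocytes had -0.88 ± 0.28 (adjusted p = 0.057), which became -0.81 (adjusted p = 0.0098) with the kidney as a block, same-numbered libraries carrying one kidney identifier. It was also called with no low-count filter (0.0063) and without fresh replicate 1 (0.010) or cryopreserved replicate 3 (0.048), and was -0.38 without fresh replicate 3 (adjusted p = 0.47). Gpx4 fell in phagocytes (-0.61 ± 0.18, adjusted p = 0.031) and lymphocytes (-0.75 ± 0.23, adjusted p = 0.037), and each call was lost without any 1 library other than fresh replicate 1 (adjusted p = 0.053 to 0.18), and that in lymphocytes also by DESeq2 (adjusted p = 0.18). Podocytes were not tested, but their Gpx4 level was 24.0, 21.3 and 23.4 cryopreserved against 23.4, 19.0 and 20.8 fresh. In all, 7 of 13 tests of members were called, where 7.94% of genes were called in the distal nephron, 5.91% in endothelial cells, 11.5% in phagocytes and 10.4% in lymphocytes.

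After warm dissociation 9 of 13 tests were called, against 16.1%, 8.44%, 14.6% and 10.0% of genes in the same 4 gates. Gpx3 fell in the distal nephron (-2.03 ± 0.19, adjusted p = 6.8e-06), endothelial cells (-2.1 ± 0.19, adjusted p = 1.1e-06), phagocytes (-3.14 ± 0.29, adjusted p = 1.9e-05) and lymphocytes (-3.50 ± 0.26, adjusted p = 4.1e-05). Gpx1 again fell in the distal nephron (-1.34 ± 0.22, adjusted p = 0.00079), and in phagocytes it had -0.09 ± 0.13 (adjusted p = 0.72). Gpx4 fell in the distal nephron (-0.60 ± 0.12, adjusted p = 0.0036), though not as a call in thick limb (-0.33, adjusted p = 0.12) or intercalated cells (-0.30, adjusted p = 0.38) alone, and in phagocytes (-0.63 ± 0.19, adjusted p = 0.040) and lymphocytes (-0.86 ± 0.20, adjusted p = 0.021). Both immune-cell calls were lost without cryopreserved replicate 1, 2 or 3 or fresh replicate 2, and the phagocyte one also without fresh replicate 3 (adjusted p = 0.055 to 0.17). DESeq2 ended both (adjusted p = 0.14 and 0.12), a stricter gate the phagocyte one (0.13) and leaving out the low-count filter the lymphocyte one (0.072). With the kidney as a block the phagocyte call was lost (adjusted p = 0.054) and one for Gpx1 in lymphocytes was gained (adjusted p = 0.039). Lymphocyte Gpx1 was also called with no low-count filter (-1.02, adjusted p = 0.0033). The lists moved as after cold dissociation, with every tested probe gene lower in each gate, 10, 10, 9 and 7 genes.

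Whether the fall of Gpx3 differed between dissociations was tested as an interaction. In endothelial cells the fall was smaller after warm dissociation by 2.07 ± 0.38 on the log2 scale (adjusted p = 0.0081), where 0.316% of genes were called. The cryopreserved warm libraries held 4.78, 6.19 and 6.48, all above the 1.45, 1.26 and 2.27 of the cold ones, while the fresh levels overlapped. The summed probe level of cryopreserved endothelial cells was 3.90 to 5.79 after cold and 3.66 to 6.43 after warm dissociation. Endothelial Gpx6, not tested, was 0 to 0.0222 after cold and 0.0997 to 0.255 after warm dissociation when cryopreserved. Fresh it was 0 to 0.0293 and 0 to 0.231. The call was lost without replicate 2 of the cold cryopreserved group (adjusted p = 0.065). In phagocytes the difference was 1.42 ± 0.41 (adjusted p = 0.17, or 0.032 without fresh cold replicate 1), in lymphocytes 0.39 ± 0.44 (adjusted p = 0.93) and in the distal nephron -0.16 ± 0.37 (adjusted p = 0.90), against 0.960%, 0.740% and 0.556% of genes called. None of the interactions of Gpx1, Gpx4 or Gpx6 was called.

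Gpx6 under cryopreservation was read beside the share of thick limb cells among distal cells. The pooled distal level was 1.15, 0.696 and 0.689 in fresh cold cells and 0, 0.195 and 0.668 in cryopreserved ones (-1.57 ± 0.50, adjusted p = 0.063, or -2.52 and 0.0066 without cryopreserved replicate 3, and -1.62 and 0.00043 with no low-count filter). Thick limb cells made up 27.5 to 31.7% of gated distal cells fresh and 6.56 to 10.3% cryopreserved. In thick limb cells alone the log2 fold change was -0.03 (adjusted p = 0.99), from the 2 cryopreserved libraries with at least 10 such cells, at 1.70 and 6.41. After warm dissociation, where thick limb cells made up 35.6 to 55.4% fresh and 31.0 to 50.2% cryopreserved, the pooled fall was -1.57 ± 0.24 (adjusted p = 0.00040) and that of thick limb cells alone -0.88 (adjusted p = 0.0091). Thick limb levels there were 7.20, 4.79 and 5.72 fresh and 3.07, 3.31 and 2.26 cryopreserved, without overlap.

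Balb/c female cells kept 269 cells in the proximal tubule gate after cryopreservation, so the tubule itself could be tested there. Gpx1 fell from 55.7, 48.6 and 54.6 to 33.6, 32.7 and 26.4 (-1.03 ± 0.13, adjusted p = 7.1e-06). Gpx4 fell from 28.1, 26.2 and 26.4 to 23.3, 22.6 and 23.5 (-0.48 ± 0.11, adjusted p = 0.0032). Gpx3 had 244, 253 and 220 fresh and 223, 249 and 198 cryopreserved, which overlapped (-0.35 ± 0.13, adjusted p = 0.058), and this value passed the threshold without fresh replicate 3, cryopreserved replicate 1 or cryopreserved replicate 2 (adjusted p = 0.021 to 0.032), by DESeq2 (0.014), with RLE size factors (0.049), with no low-count filter (0.019) and with mitochondrial genes kept (0.043), which makes 7 of 11 alternatives. All 9 tested probe genes fell in the tubule gate, with a median log2 fold change of -0.90. Among genes tested there 23.3% were called.

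Outside the tubule the same cells repeated the fall of Gpx3. Phagocytes went from 10.2, 24.0 and 15.9 to 6.05, 3.22 and 3.67 (-1.99 ± 0.27, adjusted p = 0.00032), endothelial cells from 8.80, 15.7 and 13.4 to 5.09, 4.26 and 3.31 (-1.58 ± 0.20, adjusted p = 0.00013), lymphocytes by 1.48 ± 0.31 on the log2 scale (adjusted p = 0.0086, lost without replicate 2 of either group at 0.069 to 0.092) and the distal nephron by 1.67 ± 0.18 (adjusted p = 6.4e-05). Probe genes fell in 8 of 9 tests in endothelial cells (median -2.28), 8 of 8 in phagocytes (-2.98), 4 of 4 in lymphocytes (-2.01) and 9 of 9 in the distal nephron (-3.10). Phagocyte Gpx1 was 16.1, 15.6 and 16.0 fresh and 13.1, 14.7 and 11.3 cryopreserved (-0.32 ± 0.13, adjusted p = 0.25), and it fell in the endothelial gate (-0.72 ± 0.15, adjusted p = 0.016), which was lost without replicate 2 or 3 of the fresh group. Distal Gpx6 fell from 1.05, 0.969 and 1.10 to 0.261, 0.283 and 0.279 (-2.06 ± 0.13, adjusted p = 1.7e-06), while thick limb cells went from 28.6 to 38.2% of the distal gate to 12.2 to 22.5%, and in thick limb cells alone it fell by 0.93 (adjusted p = 0.016). Together 11 of 16 tests were called, of which distal Gpx4 was not called in intercalated cells alone (-0.18, adjusted p = 0.55), against 20.6% of genes in the distal nephron, 1.79% in endothelial cells, 3.69% in phagocytes and 2.43% in lymphocytes.

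**Figure D4:**
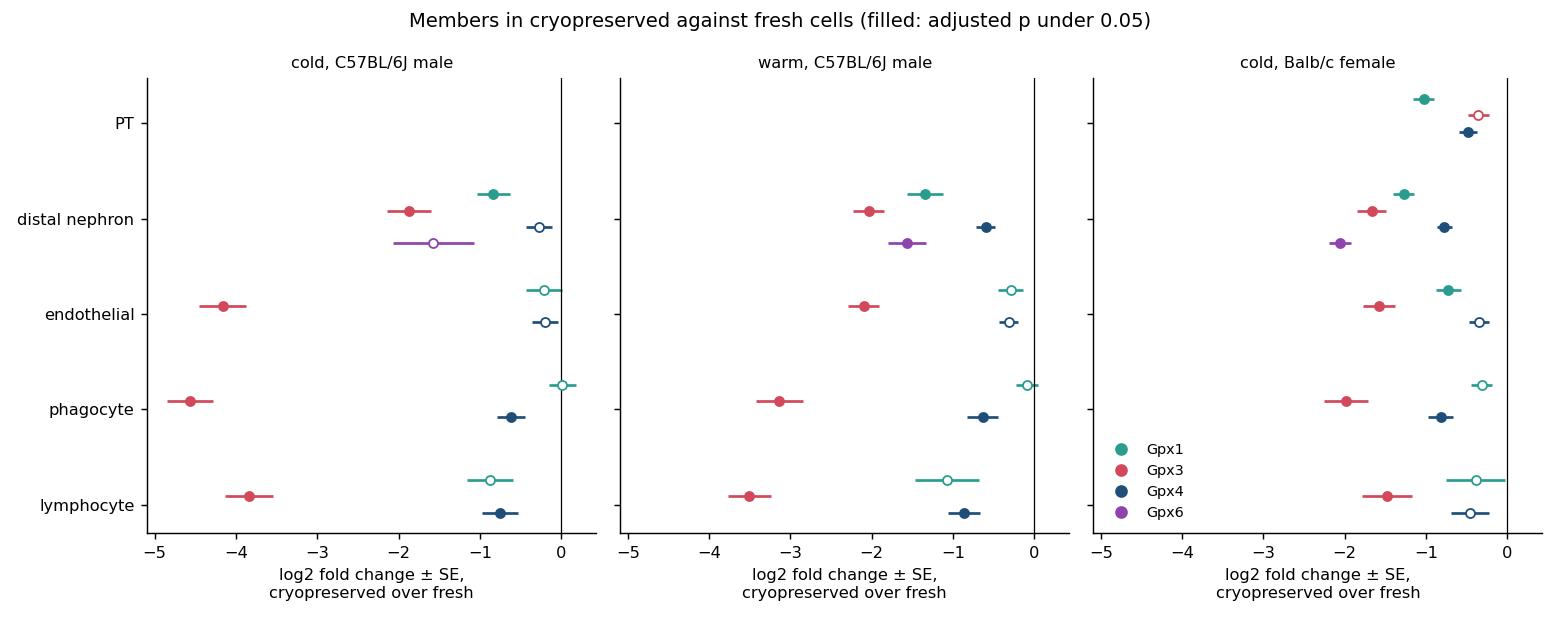
Log2 fold change of each member in cryopreserved over fresh cells (x axis, bars ± SE, 3 libraries per group) by gate for C57BL/6J cold, C57BL/6J warm and Balb/c female cold dissociation; filled points have an adjusted p under 0.05. Gpx3 lies to the left of 0 in all gates outside the proximal tubule, while Gpx1 in phagocytes lies between -0.32 and 0.02 in the 3 panels.

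The wider peroxide and selenium pathway was counted beside these falls, where 23.3% of all genes tested were called in Balb/c female proximal tubule cells and 11.5% in C57BL/6J phagocytes after cold dissociation. In cryopreserved Balb/c proximal tubule cells 10 of 15 peroxide-handling enzymes fell and 1 rose, with Prdx1, a cytosolic peroxiredoxin, at -1.15, mitochondrial Prdx3 at -0.92, Prdx4 of the endoplasmic reticulum at -0.86 and Sod1, the cytosolic superoxide dismutase, at 0.48. Of the genes that supply glutathione 4 of 8 fell, among them the reductase Gsr (-0.93) and the synthesis subunit Gclm (-0.82), and 7 of 10 other selenoproteins fell while 1 rose. Medians were -0.59 for the peroxide enzymes, -0.28 for glutathione supply and -0.48 for selenoproteins. The other family members Gpx8 and Gpx7 rose in that gate (4.00 ± 0.42 and 1.85 ± 0.63), which held 269 cryopreserved cells. Both were scarce in bulk RNA of Balb/c female cold suspensions, at 13.2 and 2.11 CPM on average. Whether their rise came from tubule cells or from RNA of other cells was not tested. In C57BL/6J phagocytes after cold dissociation 3 of 12 peroxide enzymes fell, catalase (Cat, -1.24), the mitochondrial dismutase Sod2 (-0.97) and Prdx1 (-0.77), and 2 of 5 glutathione genes fell, led by Ggt1 (-5.71), itself a brush border enzyme of the proximal tubule. Sephs2, which makes the selenium donor for selenocysteine, fell in phagocytes (-1.26), distal nephron (-1.45) and lymphocytes (-1.30) there.

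Warm against cold dissociation changed few members in fresh cells. Of 16 tests 2 were called, both in the distal nephron. Gpx6 rose from 1.15, 0.696 and 0.689 to 3.34, 2.1 and 3.55 (1.84 ± 0.22, adjusted p = 5.6e-05), and within thick limb cells from 4.35, 2.44 and 2.45 to 7.20, 4.79 and 5.72 (0.93, adjusted p = 0.016), whose share of the distal gate was also larger. Distal Gpx4 rose by 0.44 ± 0.11 (adjusted p = 0.036), but the call was lost when any 1 of the 6 libraries was left out (adjusted p = 0.053 to 0.21). It was also lost with a stricter gate (0.057), in thick limb (0.22) or intercalated cells (0.98) alone and with the replicate number as a block (0.054). Distal Gpx1 had 0.51 ± 0.19 (adjusted p = 0.17) and was called with no low-count filter (0.0084). Proximal tubule levels did not separate: Gpx3 had 341, 364 and 346 cold and 323, 257 and 365 warm (-0.08 ± 0.11, adjusted p = 0.66), and Gpx1 0.26 ± 0.13 (adjusted p = 0.19). The shares of all genes called were 8.66% in the proximal tubule, 3.83% in the distal nephron, 1.68% in endothelial cells, 3.91% in phagocytes and 4.85% in lymphocytes. Among peroxide enzymes in the tubule 3 of 15 rose, Prdx6 (0.76), Txn2 (0.69) and Txn1 (0.52), and Sod1 (-0.61) and Cat (-0.45) fell, and the glutathione synthetase Gss rose (0.76). Slc3a2, the heavy chain of the cystine transporter, rose in phagocytes (1.61) and lymphocytes (1.49).

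Bulk suspensions of the same strain gave the same direction for Gpx6. Warm suspensions held 51.6, 57.6 and 52.4 CPM against 37.7, 39.1 and 31.2 in cold ones, without overlap (0.57 ± 0.09, adjusted p = 0.0025). Gpx3 was 4340, 4275 and 4995 CPM warm and 5022, 5944 and 6025 cold (-0.33 ± 0.10, adjusted p = 0.063), a value that passed the threshold by DESeq2 (adjusted p = 0.0077), with no low-count filter (5.9e-06) and without cold replicate 1 or warm replicate 3 (0.031 and 0.045). Gpx1 and Gpx4 had -0.05 ± 0.13 and -0.07 ± 0.08. One of 4 members was called, against 8.73% of genes, and 3 of 10 probe genes fell. In Balb/c females, intact kidney held less Gpx3 than its cold suspension, 5957, 5974 and 5556 CPM against 8316, 7662 and 8237 (-0.43 ± 0.08, adjusted p = 0.0049), and no other member was called, against 19.9% of genes. Gpx6 there was 50.4, 47.7 and 57.3 CPM intact and 42.9, 49.6 and 43.3 in suspension (0.23 ± 0.08, adjusted p = 0.075, or 0.043 without suspension replicate 2). Of the glutathione supply genes 5 of 9 were higher in intact kidney, led by Gss (0.89), Gclm (0.56) and Ggt1 (0.56), and of other selenoproteins 3 were higher, led by the deiodinase Dio1 (1.45), and 2 lower. The probe list split, with 2 genes higher and 2 lower of 10.

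Nuclei prepared as 3x500g held less Gpx1, Gpx3 and Gpx4 than cells in the proximal tubule and distal nephron, and less Gpx6 in the distal nephron. The other preparations were not tested against cells. In Balb/c females distal Gpx3 was 10.8 to 14.6 in 1x2000g nuclei, overlapping the 11.2 to 18.7 of cells, and 6.22 to 8.57 in sucrose nuclei. Endothelial Gpx3 was 19.0 to 26.1 in 1x2000g nuclei, above the 8.80 to 15.7 of cells, and 10.8 to 13.6 in sucrose nuclei, which overlapped cells. Intronic as well as exonic reads were counted for nuclei and exonic reads alone for cells, so preparation and counting cannot be told apart in these comparisons. In Balb/c female proximal tubule Gpx1 was 1.55, 1.24 and 1.16 in 3x500g nuclei against 55.7, 48.6 and 54.6 in cells (-6.09 ± 0.18, adjusted p = 3.7e-11). Gpx4 fell by 5.55 ± 0.14 (adjusted p = 1.4e-11) and Gpx3, at 12.4, 10.9 and 11.8 against 244, 253 and 220, by 5.12 ± 0.21 (adjusted p = 4.2e-10). In endothelial nuclei Gpx3 was 10.3, 11.3 and 9.0, which overlapped the pooled proximal tubule gate but lay below S1/S2 nuclei (16.0 ± 0.966, lowest 15.0) and above S3 nuclei (4.49 ± 0.290), whereas thick limb nuclei held 5.68, 5.84 and 4.90; in cells of the same sex the proximal tubule stood far above both. In male nuclei S1/S2 Gpx3 averaged 51.2 ± 8.32, above S3 (22.4 ± 4.19) and endothelial nuclei (21.9 ± 6.00) without overlap. Against cells the endothelial Gpx3 difference of female 3x500g nuclei was -0.50 ± 0.15 (adjusted p = 0.0051), a call lost without 3x500g replicate 3 (-0.38, adjusted p = 0.059). Gpx1 and Gpx4 there had -3.40 ± 0.12 and -3.97 ± 0.13. The probe list kept a contrast in the same nuclei, at 52.5 to 71.7 in proximal tubule and 3.90 to 7.07 in endothelial nuclei. Thick limb Gpx6 was 0.0417, 0.0870 and 0.0397 in nuclei and 2.39, 2.02 and 1.90 in cells, and distal Gpx6 fell by 5.11 ± 0.16.

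Proximal tubule Gpx6, near 0 in both, was not tested. All 10 tests were called in females, against 85.7% of genes in the proximal tubule, 84.1% in the distal nephron and 80.5% in endothelial cells. In Balb/c males 9 of 10 were called, against 75.3%, 72.2% and 77.6%, so the count itself is near the background. Male proximal tubule nuclei held 39.1, 27.2 and 29.6 of Gpx3, against 299, 334 and 248 in cells (-3.49 ± 0.30, adjusted p = 5.6e-09). Endothelial Gpx3 was 28.9, 18.5 and 18.4 in nuclei and 36.0, 47.1 and 51.6 in cells (-0.03 ± 0.32, adjusted p = 0.94), a test in which RLE size factors in place of TMM moved the median of all genes by 0.34 and turned the sign of Gpx3. Under RLE the call for endothelial Gpx4 (-0.93 ± 0.35, adjusted p = 0.011) was lost (adjusted p = 0.075), as it was with a stricter gate (-0.48, adjusted p = 0.17) and without any 1 of the 3 nuclei libraries (0.055 to 0.080). That of endothelial Gpx1 (-1.27 ± 0.37) was lost without nuclei replicate 1 (adjusted p = 0.091). Levels of Gpx3 per 10000 UMIs did not overlap there, although the TMM-scaled test did not call it. In female tubule nuclei all 15 peroxide enzymes fell (median -4.16) and 9 of 10 other selenoproteins fell (median -4.20), while the selenocysteine machinery divided, with Eefsec, the elongation factor for selenocysteine, at 1.81, Sepsecs at 1.38 and Secisbp2 at 0.67, and Sephs2 at -3.84.

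Among nuclear preparations 1x2000g nuclei, which differ from 3x500g in both the number of washes and the spin, held higher levels of each tested member. Proximal tubule Gpx3 was 22.9, 17.7 and 22.8 in 1x2000g nuclei against 12.4, 10.9 and 11.8 in 3x500g nuclei (0.86 ± 0.13, adjusted p = 0.0039), and endothelial Gpx3 was 25.5, 19.0 and 26.1 against 10.3, 11.3 and 9.0 (1.23 ± 0.11, adjusted p = 3.8e-07). Distal Gpx1 rose by 1.89 ± 0.15, Gpx4 by 0.99 ± 0.09 and Gpx6 by 2.17 ± 0.21. All 11 tests were called, against 22.5% of genes in the proximal tubule, 31.9% in the distal nephron and 19.0% in endothelial cells. In the proximal tubule the Gpx1 call (0.88 ± 0.17) was lost without 3x500g replicate 3 (adjusted p = 0.051), and the Gpx6 call (1.68 ± 0.38) without that library or 1x2000g replicate 2 (0.051 to 0.067). Peroxide enzymes rose in 9 of 15, 11 of 15 and 10 of 14 tests in these gates, other selenoproteins in 8 of 10, 9 of 10 and 7 of 9, and probe genes in 1 of 10, 8 of 9 and 8 of 9. The probe list thus rose with the members outside the tubule, where its median was 1.45 and 1.57, and not within it, where its median was 0.03, and its part in the rise was not tested.

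Sucrose nuclei lay between these preparations in mean Gpx1, Gpx3 and Gpx4 in the proximal tubule, distal and endothelial gates. Their proximal tubule Gpx3 was 15.4, 18.4 and 12.2 (0.39 ± 0.15 over 3x500g, adjusted p = 0.073) and their endothelial Gpx3 12.5, 13.6 and 10.8 (0.26 ± 0.11, adjusted p = 0.095). Thick limb Gpx6 was 0.209, 0.275 and 0.240, above all 3x500g values, and distal Gpx6 rose by 2.03 ± 0.22 (adjusted p = 7.9e-05). With distal Gpx1 (0.72 ± 0.17), Gpx3 (0.50 ± 0.11) and Gpx4 (0.43 ± 0.08), 8 of 11 tests were called, against 34.0%, 44.5% and 17.6% of genes in the 3 gates. Leaving out single libraries ended 3 of these calls: proximal tubule Gpx4 (0.28 ± 0.08) without 3x500g replicate 1 or 3 or sucrose replicate 2 or 3 (adjusted p = 0.060 to 0.076), endothelial Gpx4 (0.55 ± 0.17) without 3x500g replicate 2 or 3 or sucrose replicate 1 or 2 (0.084 to 0.20), and endothelial Gpx1 (0.63 ± 0.16) without 3x500g replicate 1 or sucrose replicate 2 (0.051 to 0.082). DESeq2 also ended the endothelial Gpx4 call (0.082), and distal Gpx4 was not called in intercalated cells alone (0.20). Without sucrose replicate 3 Gpx3 was called in proximal tubule (0.020) and endothelial nuclei (0.010), the former also by DESeq2 (0.038) and the latter with no low-count filter (0.029). Probe genes rose in 2 of 10, 8 of 9 and 2 of 9 tests. Both preparations share the 3x500g libraries as their reference.

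**Figure D5:**
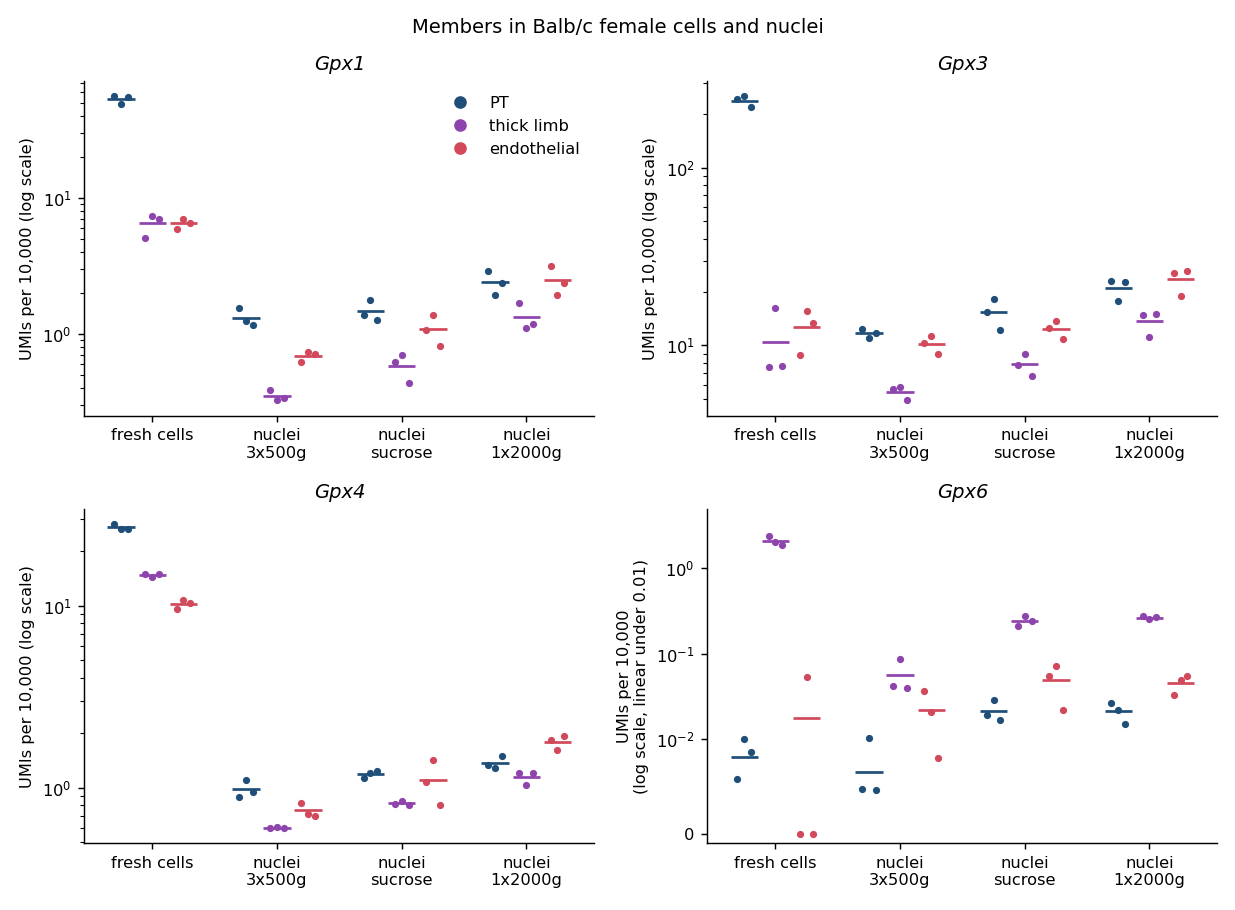
Level of each member (UMIs per 10000, log axes; the Gpx6 axis is linear under 0.01) in Balb/c female fresh cells and 3 nuclear preparations, for proximal tubule (PT), thick limb and endothelial gates; each point is 1 library and each bar the mean of 3. Proximal tubule levels of Gpx1, Gpx3 and Gpx4 are lower in nuclei, Gpx3 overlaps there between PT (12.4, 10.9 and 11.8 in 3x500g nuclei) and endothelial nuclei (10.3, 11.3 and 9.0), and 1x2000g nuclei hold the most Gpx1, Gpx3 and Gpx4 by their means.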

How the data were processed

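Single-cell and single-nucleus files were deposited by the authors as UMI counts per gene and barcode, made with Cell Ranger 2.1.1 on GRCm38 (mm10), from exonic reads for cells and from intronic and exonic reads for nuclei, and filtered for cells; bulk files were deposited by the authors as read counts per gene, made with STAR 2.6.1a and featureCounts. Python 3.11.15, R 4.3.3, edgeR 4.0.16 and DESeq2 1.42.0 were used here.

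A cell joined the class with the highest share of its markers detected, given at least 3 markers (5 of 25 for the proximal tubule) and a share over 1.5 times the next; segments S1/S2 and S3 needed 2 markers of 8 and 7. The 118 markers, the pathway lists and the members were chosen with earlier results of these data known. Cells that reached the minimum of more than one class but were not placed were left out as possible doublets. Those whose top share was over 1.5 times the next stayed in, and no doublet caller was run. Libraries with at least 10 gated cells entered levels; mitochondrial genes were left out. UMIs summed per library and gate, and bulk counts, were tested with edgeR (TMM, filterByExpr, glmQLFTest, Benjamini-Hochberg over all genes tested, called at adjusted p under 0.05); SE is the log2 fold change over the square root of F. The fits were tested on simulated data. Thinned shares are exact expectations at 500 UMIs.

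Named genes were the 4 members, up to 3 called genes per direction and list, and the 3 genes most like each member by Pearson r of log2(level + 0.1). Barcode headers give same-numbered C57BL/6J libraries a shared kidney identifier, so fits with the replicate number as a block were added. Within one dissociation these are called fits with the kidney as a block. The paper describes a kidney as going through one dissociation, so what the identifier means between cold and warm libraries was not established. Same-number correlations of deviations were weak (-0.11 to 0.22). Libraries of a group come from 3 mice. Bulk Gpx2 and Gpx5 were not listed in every bulk table.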

Additional observations from a re-analysis of the deposited data

Results flagged for a closer look

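The fall of Gpx3 in endothelial cells after cryopreservation differed between dissociations by 2.07 on the log2 scale (the interaction term, adjusted p = 0.0081 by edgeR's quasi-likelihood test), smaller after warm than after cold dissociation in C57BL/6J. Leaving out 1 library at a time gave 1.73 to 2.38, and the call was lost without replicate 2 of the cold cryopreserved group (adjusted p = 0.065). With the replicate number as a block it was 2.03 (adjusted p = 0.00011). Its cause was not tested.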

How the results depend on the processing

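Across 121 tests of a member in a gate or in bulk, interactions included, 70 were called; 50 of these kept their call under every alternative run and 20 lost it under at least 1, while 10 of the others gained one. In 1409 refits 1 called value reversed, while sign changes of values called in neither fit were not counted: distal Gpx4 in fresh warm against cold cells was -0.021 (adjusted p = 0.98) in intercalated cells alone. The cause of these changes was not tested.

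In bulk warm against cold suspensions, 2 members were called by DESeq2 and 2 with no filter on low counts, against 1. In fresh warm against cold cells 1 was called with a stricter gate, 1 with thick limb cells alone and 0 with intercalated cells alone, against 2. After methanol, the median difference in percent of cells over 4 gates (distal, endothelial, phagocyte and lymphocyte) was 16.1 (Gpx3 cold), 23.1 (Gpx4 cold), 37.6 (Gpx1 warm), 16.5 (Gpx3 warm) and 22.1 (Gpx4 warm) with thinning to 1000 UMIs, against 30.3, 18.2, 43.3, 27.2 and 13.7 with 500. The median ratio of Gpx4 was 1.95 cold and 1.63 warm with mitochondrial genes kept, and 1.55 warm with a stricter gate, against 1.78 cold and 1.52 warm over the same gates. Thick limb Gpx6 over that of the distal convoluted and connecting tubule was 12.7 ± 6.86 as a mean over cells, against 7.82 ± 1.89 (SD, n = 3). Leaving out 1 library at a time gave 1 to 2 calls in each bulk comparison, 1 in fresh warm against cold cells, 4 to 8 in cold cryopreserved cells and 5 to 9 in sucrose nuclei. The methanol median ratios over 4 gates then ran from 3.15 to 4.54 (Gpx1 cold), 3.49 to 5.04 (Gpx3 cold), 1.71 to 1.87 (Gpx4 cold), 3.25 to 4.73 (Gpx1 warm) and 1.43 to 1.64 (Gpx4 warm). Alternatives on thick limb or intercalated cells alone, the block and those of the interaction were chosen after seeing the data.

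With the replicate number as a block, distal Gpx4 in fresh warm against cold cells was 0.45 (adjusted p = 0.054) and the count fell to 1. Gpx1 in cryopreserved lymphocytes was then -0.81 cold and -0.98 warm and called, and Gpx4 in warm cryopreserved phagocytes was -0.62 (adjusted p = 0.054). The block changed no other call. For Balb/c and bulk comparisons no paired analysis was possible, because neither titles nor columns give a kidney shared between groups. Their replicate numbers only follow deposit order. The paper describes the Balb/c fresh and cryopreserved cells as aliquots of suspensions, but which cryopreserved library came from which fresh one is not stated. Small gates limit depth, such as 198 intercalated cells in the 3 fresh cold libraries.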
